A study of Mus musculus with 20 samples.

Results

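The neurotrophin system was followed through 6 genes of the 27962 named in the series: the ligands Bdnf and Ntf3, the Trk receptors Ntrk2 and Ntrk3, the p75 receptor Ngfr and the sorting receptor Sort1. Their members were the probes, other than control spots, that the array design names for these genes. There were 13 of them among 41174 probes, each kept separate: 2 for Bdnf, 1 for Ntf3, 3 for Ntrk2, 1 for Ntrk3, 2 for Ngfr and 4 for Sort1. All 13 were bright enough to be tested, on a rule that asked for a red signal well above background on at least 5 of the 20 arrays and that 28496 probes passed.

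The samples were dissociated mouse hippocampal neurons, treated on day 21 in culture for 24 h. The 4 groups of 5 were vehicle (called control), 100 µM AP5, 100 nM NVP-AAM077 (NVP), and 1 µM of a compound that the labels code Ro25-4891 (Ro25). AP5 and NVP-AAM077 are competitive antagonists of the NMDA receptor, the glutamate-gated calcium channel of excitatory synapses. Of the compound known by its code no more than the label is given here. The series' title places the comparison in a study of NMDA receptor activity, the prostaglandin synthase Ptgs2 and astrocyte proliferation. The labels give wells of 6-well plates and no genotype, animal or separate culture, so the spread between the 5 samples of a group may be technical. Each array carried a sample in Cy5 against 1 universal mouse reference RNA in Cy3, and every level below is a log2 ratio of sample over reference, so levels of different probes are not compared. Per array 58.6% to 69.3% of probes had a red signal well above background, and 0 spots were saturated.

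Neurotrophins are made as precursors whose pro-domain is cut off inside or outside the cell. Mature BDNF binds TrkB, the product of Ntrk2, and mature NT-3, the product of Ntf3, binds TrkC, the product of Ntrk3. The precursors bind p75, the product of Ngfr, together with sortilin, the product of Sort1. In hippocampal neurons Bdnf is a classic activity-dependent gene: calcium entry through NMDA receptors and voltage-gated channels drives it from several alternative start sites. TrkB exists as a full-length kinase, typical of neurons, and as a truncated form without the kinase, abundant in astrocytes.

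RefSeq (GRCm38.p6) lists 7 start sites for Bdnf, and the 250 bases before the first and the third are shown because they hold the motifs of calcium-responsive factors searched for here. Capitals mark TGACG, the short form of the cAMP response element bound by CREB and a part of the full element, and TCGTG, a core bound by Npas4, each on either strand (read as CGTCA and CACGA on the other).
Bdnf start 1, chr2:109674450-109674699, plus strand: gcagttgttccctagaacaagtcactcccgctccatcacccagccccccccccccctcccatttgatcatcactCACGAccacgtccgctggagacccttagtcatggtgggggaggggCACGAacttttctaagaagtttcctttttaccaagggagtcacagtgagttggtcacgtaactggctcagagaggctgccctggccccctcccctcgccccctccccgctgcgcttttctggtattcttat
Bdnf start 3, chr2:109692186-109692435, plus strand: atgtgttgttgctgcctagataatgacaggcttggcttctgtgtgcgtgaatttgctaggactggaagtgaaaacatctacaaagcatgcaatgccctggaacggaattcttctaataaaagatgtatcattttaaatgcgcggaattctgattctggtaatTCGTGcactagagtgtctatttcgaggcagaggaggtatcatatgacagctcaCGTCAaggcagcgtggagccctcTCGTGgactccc

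The window before start 3 held CGTCA 35 bases before the start and TCGTG 88 and 12 bases before it. The window before start 1 held CACGA 176 and 131 bases before the start and no TGACG. Of the 7 Bdnf windows, 1 held TGACG on either strand, which 17.8% of 32841 windows of the same length held, and 2 held the Npas4 core, which 13.3% of all windows held. The full element TGACGTCA, in 1.55% of all windows, was in none of the 7, and the E-box CACGTG, in 6.02%, was in none. A pattern wider than the AP-1 site, TGANTCA with any letter at N, was in 6.75% of all windows and in 1 of the 7, before start 2. It reads TGAATCA there, where the AP-1 site has C or G in the middle. Windows were listed for 4 of the 6 genes (Bdnf, Ntf3, Ntrk2 and Ngfr), and outside Bdnf the 1 match was the E-box, before 1 of the 2 starts of Ntf3. These matches are letters in a window, and the arrays do not tell the start sites apart, since both Bdnf probes are assigned to 1 transcript.

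Bdnf fell about 3-fold in AP5 and was the only member gene past the threshold in any comparison. Its 2 probes lie 2267 bases apart on chromosome 2, at 109574833 to 109574892 (upstream) and 109577100 to 109577159 (downstream) in the build mm7 that the file headers give. The headers do not say which part of the transcript either lies in. The upstream probe is the brighter, and was printed in 10 spots on each array.

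For the upstream probe the 5 control samples read 2.21, 2.12, 2.25, 2.41 and 2.59, a mean of 2.32 ± 0.19 (SD, n = 5). The 5 AP5 samples read 0.69, 0.82, 0.83, 0.24 and 1.01, a mean of 0.72 ± 0.29 (SD, n = 5). The highest AP5 sample lay below the lowest sample of every other group, and AP5 sample 4 was the lowest of all 20. The difference, AP5 minus control, was -1.60 (SE 0.12), a 3.03-fold fall, with an adjusted p of 4.05e-08 in limma over 28496 probes. An exact two-sided permutation test on the 10 samples gave p = 0.00794, the smallest that 5 against 5 allows, and 0.0159 after Benjamini-Hochberg adjustment over the 6 pairs of groups.

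The downstream probe gave a separate reading of the same transcript. Its control samples read 2.75, 2.52, 2.70, 2.58 and 2.68, and its AP5 samples 1.11, 1.05, 1.1, 0.74 and 1.37. The groups again did not overlap, and AP5 sample 4 was again the lowest and AP5 sample 5 the highest of its group. The difference was -1.57 (SE 0.10), a 2.97-fold fall, with a limma adjusted p of 1.24e-09. By size of fall the upstream probe ranked 15 and the downstream probe 18 among the 28496 tested. Within groups the deviations of the 2 probes from their group means had r = 0.65 over the 20 arrays. The 10 spots of the upstream probe had an SD of 0.0219 to 0.0886 within an array, against 0.13 to 0.29 between the samples of a group.

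**Figure D1:**
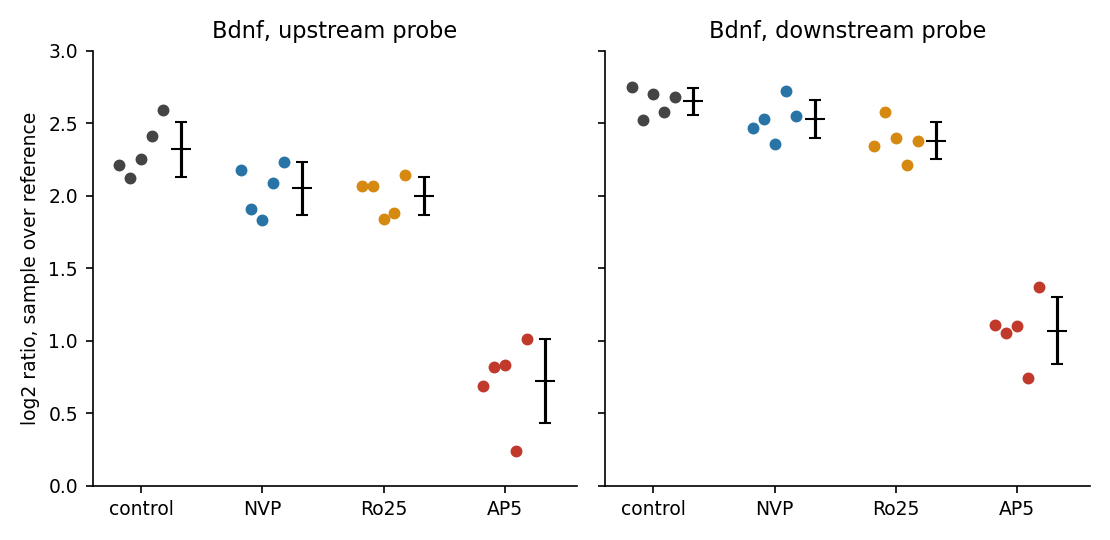
Each point is 1 array's log2 ratio of sample over reference for Bdnf (upstream probe left, downstream probe right), by group, and the bar beside each group is its mean ± SD (n = 5). The AP5 samples read 0.24 to 1.01 and 0.74 to 1.37, below every sample of the other 3 groups on either probe.

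AP5 also lay below the other compounds. AP5 minus NVP was -1.33 (SE 0.12, limma adjusted p 7.01e-07) on the upstream probe and -1.45 (SE 0.10, adjusted p 5.55e-09) on the downstream one. AP5 minus Ro25 was -1.28 (SE 0.12, adjusted p 1.73e-06) and -1.31 (SE 0.10, adjusted p 3.64e-08). The doses differ between compounds, 100 µM against 100 nM and 1 µM, so these are differences between treatments as given.

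NVP and Ro25 left Bdnf much closer to control. On the upstream probe the NVP samples read 2.18, 1.91, 1.83, 2.09 and 2.23 and the Ro25 samples 2.07, 2.07, 1.84, 1.88 and 2.14. All 5 samples of either group lay below the control mean, but both groups overlapped the control range. NVP minus control was -0.27 (95% confidence interval -0.52 to -0.01, limma adjusted p 0.644), and Ro25 minus control was -0.32 (-0.57 to -0.06, adjusted p 0.829).

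On the downstream probe the same differences were -0.12 (-0.32 to 0.08, adjusted p 0.900) and -0.26 (-0.46 to -0.06, adjusted p 0.769). The exact permutation test gave p = 0.0476 for NVP (0.0571 adjusted over the 6 pairs) on the upstream probe and 0.143 (0.143 adjusted) on the downstream one. For Ro25 the exact test gave p = 0.0159 (0.0238 adjusted) on either probe. On the upstream probe NVP and Ro25 differed from each other by 0.05 (-0.21 to 0.30, adjusted p 0.968). The order of the upstream means was therefore AP5, Ro25, NVP and control. After adjustment, neither Ro25 and NVP nor NVP and control were told apart by limma or by the exact test. Ro25 against control passed the exact test adjusted over the 6 pairs of a single probe, and did not pass limma adjusted over 28496 probes. The 2 adjustments differ in the number of tests, so these calls do not set the 2 methods against each other. The exact test took no account of slide, and control sample 3 is the only control on a slide with Ro25 samples. The limma intervals above, which are unadjusted, excluded 0 for Ro25 on either probe and for NVP on the upstream one.

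Slides tie these values to the layout of the experiment. No slide holds both AP5 or NVP and control, so a fit with slide as a fixed block compares them only through control sample 3 and the other compounds. In that fit AP5 minus control was -1.26 (SE 0.32, limma adjusted p 0.125) on the upstream probe and -1.69 (SE 0.22, adjusted p 0.00434) on the downstream one. AP5 minus Ro25 on the upstream probe was -1.04 (SE 0.22, adjusted p 0.0666) with that block. Within slides, AP5 minus NVP was -0.94 and -1.16 on the 1 slide they share, and AP5 minus Ro25 was -1.38 and -1.47 on theirs, for the upstream and downstream probe in turn. On the slide that holds control sample 3, the 3 Ro25 samples differed from it by -0.22 and -0.39. In the fit with slide as a fixed block, Ro25 minus control was -0.22 (SE 0.235) on the upstream probe. On the first scan day alone, without AP5 samples 1 and 3 and Ro25 sample 2, AP5 minus control was -1.63 (SE 0.15, adjusted p 5.04e-06).

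The background to these counts is uneven between compounds. In AP5 against control 2 of the 13 member probes passed, both of Bdnf and both lower, where 2193 of 28496 probes passed (7.70%). In AP5 against NVP and in AP5 against Ro25 the same 2 probes passed, where 6.47% and 3.39% of all probes did. These 3 comparisons share the AP5 samples. In NVP against control 0 of 13 passed and 1 probe of all did (0.00351%, 2089 at an unadjusted p under 0.05). In Ro25 against control and in NVP against Ro25 0 of 13 passed and 0.00% of all did, with 1461 and 2115 probes at an unadjusted p under 0.05.

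**Figure D2:**
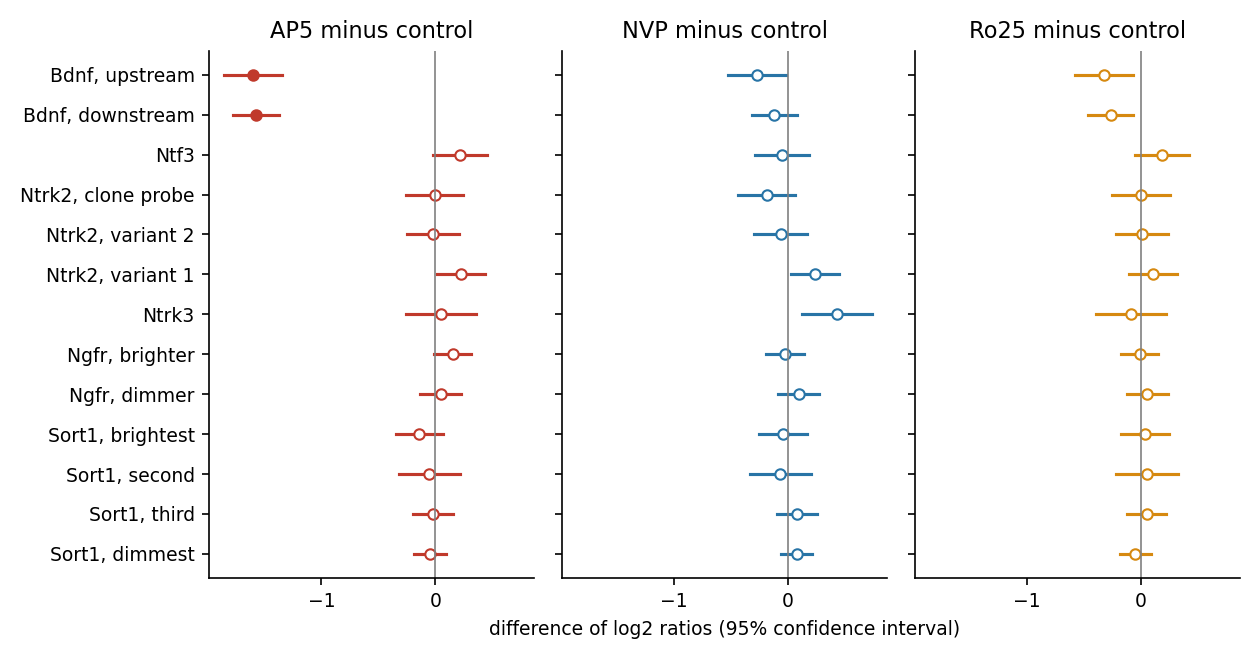
Points are the fitted difference of log2 ratios of each compound minus control for the 13 member probes, lines are 95% confidence intervals, and filled points passed an adjusted p of 0.05 in limma. The 2 Bdnf probes in AP5 are the only filled points.

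The other ligand, Ntf3, did not pass in any comparison. Its 1 probe (chr6, 126124692 to 126124751) read 1.96, 1.90, 1.75, 2.04 and 1.71 in control and 1.83, 2.12, 2.13, 2.24 and 2.11 in AP5. The groups overlapped through AP5 sample 1, and the difference was 0.22 (-0.02 to 0.45, limma adjusted p 0.297). NVP lay at 1.82 ± 0.18 and Ro25 at 2.06 ± 0.26 (SD, n = 5). It is a dim probe whose reference signal was well above background on 12 of the 20 arrays, the fewest of any member.

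Of the 3 Ntrk2 probes, 2 lie side by side (chr13, 58026995 to 58027112); 1 reads transcript variant 2, which encodes the truncated receptor, and 1 was designed to a cDNA clone. The remaining probe (chr13, 58224249 to 58224308) reads transcript variant 1, which encodes the full-length kinase. The variant 2 probe read 5.84, 6.07, 5.59, 5.82 and 5.88 in control and 5.54, 5.67, 5.81, 6.07 and 6.03 in AP5. The groups covered the same range and the difference was -0.02 (-0.25 to 0.21, adjusted p 0.964). The clone probe differed by -0.00 (-0.26 to 0.25). The intervals of both probes exclude a fall of the size of Bdnf's.

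The variant 1 probe read 4.01, 3.59, 4.11, 3.99 and 3.79 in control, 4.17, 4.13, 4.02, 4.15 and 4.14 in AP5, and 4.21, 4.09, 4.01, 4.4 and 3.98 in NVP. All 5 samples of AP5 and of NVP lay above the control mean, though both groups overlapped the control range. AP5 minus control was 0.23 (0.02 to 0.44, adjusted p 0.203) and NVP minus control 0.24 (0.03 to 0.45, adjusted p 0.594), so neither passed. The difference between the forms, variant 1 minus variant 2 within an array, averaged -1.94 ± 0.37 in control, -1.70 ± 0.24 in AP5, -1.64 ± 0.14 in NVP and -1.85 ± 0.34 in Ro25 (SD, n = 5). An exact permutation test, chosen after the values were seen, gave p = 0.27 for AP5 and 0.127 for NVP against control, both 0.588 after adjustment over 6 pairs. With slide as a fixed block the variant 1 differences were -0.17 for AP5 and -0.10 for NVP, the opposite sign.

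Ntrk3 was read by 1 probe, for transcript variant 2 (chr7, 74311423 to 74311482), and its other transcripts were not read separately. On that probe Ntrk3 was highest in NVP. Its NVP samples read 3.74, 3.18, 3.11, 3.45 and 3.46, against 2.99, 2.90, 3.34, 2.84 and 2.71 in control and 2.82, 3.36, 2.90, 2.43 and 2.83 in Ro25. All 5 NVP samples lay above the control mean, and 3 of them above every control sample. NVP minus control was 0.43 (0.12 to 0.74, unadjusted p 0.00824, limma adjusted p 0.507), and NVP minus Ro25 was 0.52 (0.21 to 0.83, unadjusted p 0.00216, adjusted p 0.570). Neither passed, and the exact permutation p adjusted over 6 pairs was 0.0635 for both. AP5 samples read 3.27, 2.99, 2.94, 2.96 and 2.86, a difference from control of 0.05 (-0.26 to 0.36). With slide as a fixed block NVP minus control was -0.08 (SE 0.24) and AP5 minus control -0.57 (SE 0.25, adjusted p 0.280), both of the opposite sign.

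Ngfr was close to the reference in every group. Its brighter probe (chr11, 95677936 to 95677995) read 0.55, 0.62, 0.37, 0.59 and 0.68 in control and 0.59, 0.68, 0.77, 0.63 and 0.90 in AP5. All 5 AP5 samples lay above the control mean but the groups overlapped, and the difference was 0.15 (-0.01 to 0.32, adjusted p 0.297). NVP and Ro25 differed from control by -0.03 and -0.01. The dimmer probe (chr11, 95683262 to 95683321) was above background in the sample channel on 18 arrays and differed from control by 0.05 in AP5, 0.10 in NVP and 0.06 in Ro25, none past the threshold. With slide as a fixed block the brighter probe's difference in AP5 was 0.53 (SE 0.17, adjusted p 0.190).

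Sort1 did not pass in any comparison. Its brightest probe (chr3, 108179719 to 108179778) read 6.06, 5.64, 5.90, 5.94 and 6.10 in control and 5.73, 5.65, 5.95, 5.83 and 5.77 in AP5, a difference of -0.14 (-0.35 to 0.07, adjusted p 0.486). The other 3 probes differed from control in AP5 by -0.05, -0.02 and -0.04. With slide as a fixed block the 4 differences in AP5 were -0.413, 0.277, 0.145 and -0.288, from the brightest probe to the dimmest, none past the threshold. In NVP and Ro25 the 4 probes differed from control by -0.07 to 0.08. The dimmest probe is given coordinates from 108172520 to 108174568, a wider stretch than any other member's. Within groups the 4 probes varied together only in part, with r between 0.04 and 0.55 over the 6 pairs of probes.

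**Figure D3:**
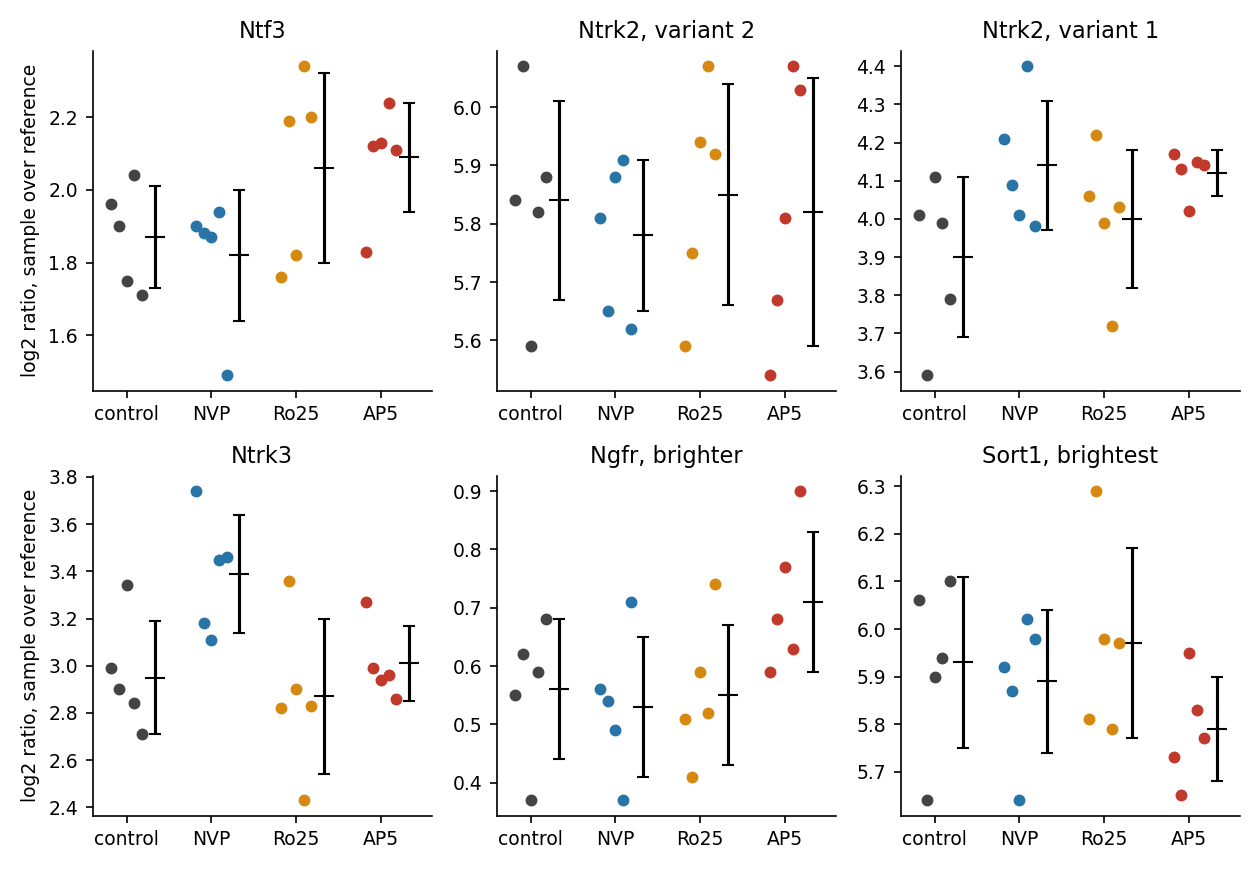
Each point is 1 array's log2 ratio of sample over reference for Ntf3, the 2 Ntrk2 transcript variants, Ntrk3, the brighter Ngfr probe and the brightest Sort1 probe, with the mean ± SD (n = 5) beside each group; the vertical axes differ and do not start at 0. Every group overlaps its control, and the widest difference from control is Ntrk3 in NVP, 3.39 against 2.95.

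The cultures held several cell types, which bears on receptors made by more than 1 of them. All 7 neuronal and all 7 astrocyte markers checked, and all excitatory and inhibitory ones, were well above background on all 20 arrays. So were 6 of 7 oligodendrocyte lineage markers, 3 of 5 microglial ones and 2 of 4 fibroblast and endothelial ones, with Pecam1 above background on 0 arrays and Mog on 1. The mean log2 ratio of 20 astrocyte markers ran from 2.99 to 3.6 in control and from 3.14 to 3.75 in AP5. That of 18 pan-neuronal markers ran from 4.20 to 4.43 in control and from 4.31 to 4.41 in AP5, and that of 15 excitatory and inhibitory neuron markers from 2.89 to 3.01 and from 3.00 to 3.14. That of 14 oligodendrocyte lineage markers ran from 1.91 to 2.26 in control and from 1.85 to 2.14 in AP5, and that of 10 microglial markers from -2.19 to -1.98 and from -2.35 to -2.12. In RNA from whole cultures, fewer cells of a type and less RNA per cell cannot be told apart.

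In AP5 against control, where 8.26% of all genes passed when each was read from its brightest probe, 0 of 20 astrocyte markers passed in limma (1 at an unadjusted p under 0.05). Of 18 pan-neuronal markers 3 were higher (Celf4, Map2 and Stmn2) and none lower, 0 of 14 oligodendrocyte lineage markers (2 unadjusted) and 0 of 15 excitatory and inhibitory markers (5 unadjusted) passed, and of 11 microglial markers 1 was higher (Csf1r) and 3 lower (Cd68, Fcer1g and Fcgr3). Of 13 fibroblast, pericyte and endothelial markers 1 was higher and 1 lower. In NVP and in Ro25 against control 0 markers of these 6 lists passed in limma, with 0 to 5 per list at an unadjusted p under 0.05. The part of these shifts in the Bdnf result was not tested. In AP5 against control the astrocyte, pan-neuronal and oligodendrocyte lineage medians moved by 0.11, -0.02 and 0.01. Those of the excitatory and inhibitory, microglial, and fibroblast, pericyte and endothelial lists moved by 0.05, -0.14 and -0.1.

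Within groups, some receptor probes followed marker lists and others did not. The 3 marker means also moved with each other. Arrays high in astrocyte markers tended to be high in oligodendrocyte lineage markers and low in pan-neuronal ones. The 18 relations below are therefore not separate from each other, and a probe's relation to 1 cell type was not told apart from the rest. With group means removed, the brighter Ngfr probe followed the astrocyte mean over the 20 arrays (Pearson r = 0.92, permutation p = 1e-05, the smallest that 100000 resamples can give, adjusted p = 0.00018 over 18 relations, Spearman rho = 0.88, adjusted p = 0.00072). Without the 2 arrays farthest from the median it was 0.89, on the 17 arrays of the first scan day 0.92, and with slide removed as well 0.87. The dimmer Ngfr probe did not share this: its r was -0.09 with the astrocyte, 0.21 with the pan-neuronal and -0.43 with the oligodendrocyte lineage mean, and -0.17 with the brighter probe. The Ntrk2 clone probe also followed the astrocyte mean (r = 0.70, adjusted p = 0.013, rho = 0.66, adjusted p = 0.0318, and r = 0.58 without 2 arrays, 0.57 on the first scan day and 0.45 with slide removed) and the oligodendrocyte lineage mean (r = 0.74, adjusted p = 0.0105, rho = 0.72, adjusted p = 0.0209, and r = 0.72 without 2 arrays, 0.70 on the first scan day and 0.75 with slide removed).

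Ntrk3 ran the other way, rising with the pan-neuronal mean (r = 0.58, adjusted p = 0.0489, rho = 0.57, adjusted p = 0.0728, and r = 0.75 without 2 arrays, 0.55 on the first scan day and 0.71 with slide removed) and falling with the astrocyte mean (r = -0.60, adjusted p = 0.0483, rho = -0.44, adjusted p = 0.175). Without the 2 farthest arrays its r with the astrocyte mean was -0.34, on the first scan day -0.37 and with slide removed -0.27, so that relation rests on Ro25 sample 2 and control sample 3. The Ntrk2 variant 1 probe, not among the relations tested, had r = 0.85 with the pan-neuronal mean and -0.60 with the astrocyte mean, where the variant 2 probe had -0.13 and 0.43. Between themselves the clone and variant 2 probes had r = 0.87, and the clone and variant 1 probes r = -0.62. The brighter Ngfr probe, unlike the dimmer one, also had r = -0.57 with the pan-neuronal mean (adjusted p = 0.0483) and 0.63 with the oligodendrocyte lineage mean (adjusted p = 0.0339), with rho of -0.55 and 0.60 that did not pass (adjusted p of 0.0564 and 0.0508). With slide removed these were -0.48 and 0.41. The Ntrk2 clone probe had r = -0.47 with the pan-neuronal mean, which did not pass (adjusted permutation p = 0.0544). The permutation tests keep samples within their group but not within their slide or scan day, and the r values with slide removed were not tested. At each point both measures share their array, its dye and its normalization.

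Bdnf, read from its upstream probe, passed with none of the 3 lists. Its r was 0.17 with astrocyte, 0.06 with pan-neuronal and -0.24 with oligodendrocyte lineage markers (adjusted permutation p of 0.687, 0.88 and 0.548). With slide removed as well these were 0.06, 0.25 and -0.52, values that were not tested. Ntf3 had r of -0.03, 0.24 and 0.00, and the brightest Sort1 probe -0.09, 0.33 and -0.12, none past adjustment. The 2 adjacent Sort1 probes had r of 0.59 and 0.51 with the astrocyte mean, so the probes of this gene differ.

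**Figure D4:**
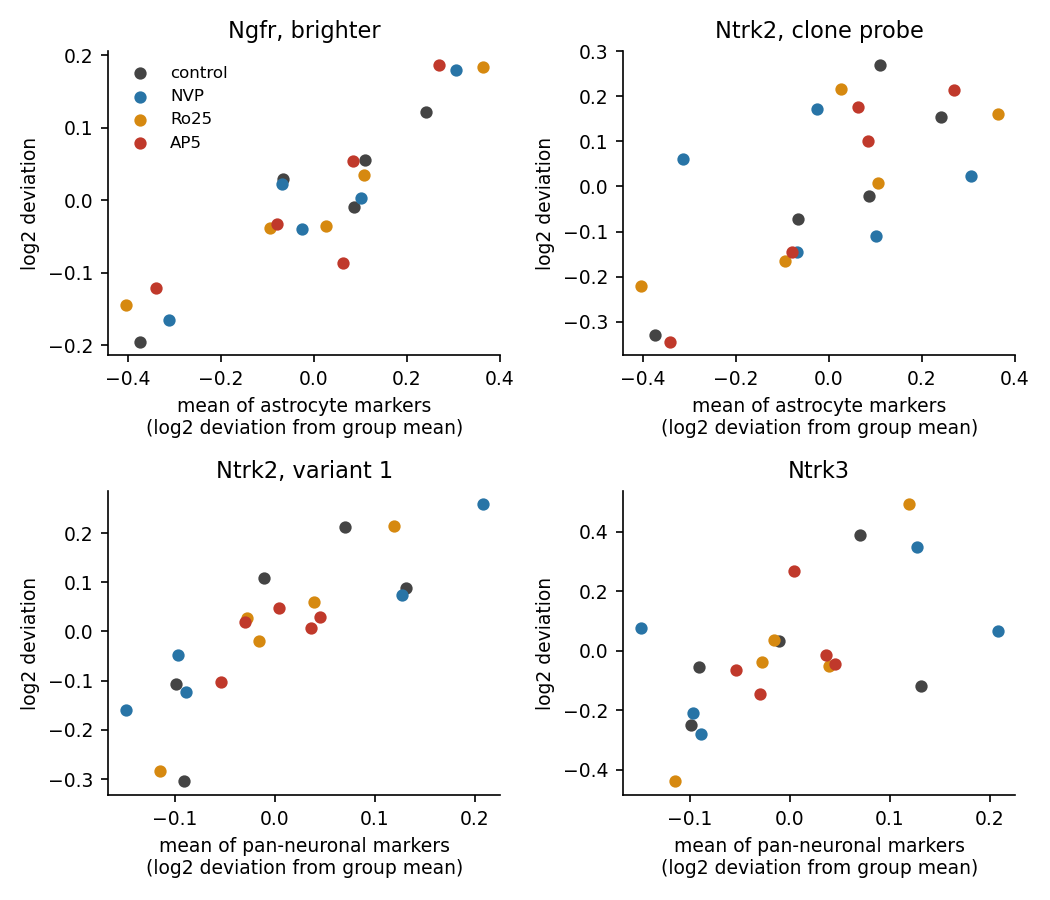
Each point is 1 of the 20 arrays, coloured by group; both axes are log2 deviations from the group mean, of the marker mean across and of the receptor probe upward. The brighter Ngfr probe and the Ntrk2 clone probe rise with the astrocyte mean (r = 0.92 and 0.70), and Ntrk2 variant 1 and Ntrk3 with the pan-neuronal mean (r = 0.85 and 0.58). The dimmer Ngfr probe is not drawn (r = -0.09 with the astrocyte mean), and the relation of Ntrk2 variant 1 was not among those tested.

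The rest of the pathway was read through 6 lists of genes, each gene by its brightest probe, against a background in AP5 of 1597 of 19342 genes (8.26%) past the threshold with a median difference of -0.004. The lists were chosen with earlier results of these data known and are given as counts. In NVP and in Ro25 against control 0 genes of the 6 lists passed in limma, where 0 of 19342 genes did (1310 and 985 at an unadjusted p under 0.05).

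Among 17 tested ligands and enzymes of pro-domain processing, 4 were lower in AP5 and 1 higher (median -0.01). The lower ones included Bdnf, Pcsk1 (from 4.01 ± 0.19 to 2.98 ± 0.25, a difference of -1.03, SE 0.11, limma adjusted p 2.52e-06) and Pcsk7 (-0.25, adjusted p 0.0117). Pcsk1 is a prohormone convertase of secretory granules and Pcsk7 a convertase of the secretory pathway. The higher one was Pcsk5, another convertase (0.80, adjusted p 0.00164). Pcsk7 lost its call with median centring (adjusted p 0.207), on the scanner's processed signals (0.0905) and on the first scan day (0.0781). On the scanner's processed signals Pcsk1 (-0.695, adjusted p 0.473) and Pcsk5 (0.947, adjusted p 0.257) lost theirs, and Pcsk5 also with normexp over all spots as deposited (0.582, adjusted p 0.12).

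Among 8 tested receptors and sortilin relatives 1 passed in AP5: Sorcs3, a relative of sortilin, which was lower by 0.65 on the log2 scale (from 1.83 ± 0.24 to 1.18 ± 0.17, adjusted p 0.0171). Without AP5 sample 4 its adjusted p was 0.0513 and without control sample 4 0.0528, and on the scanner's processed signals its difference was 0.08, the opposite sign. Among 50 adaptors and kinases downstream of the Trk receptors, 1 was higher and 2 lower (median 0.06). Rps6ka5, the kinase MSK1 that phosphorylates CREB, rose by 1.01 (from -0.16 ± 0.18 to 0.85 ± 0.32, adjusted p 5.82e-05). The adaptor Shc3 differed by -0.32 (adjusted p 0.0119) and the kinase Camk4 by -0.58 (adjusted p 0.0362). Camk4 lost its call without AP5 sample 3, 4 or 5, or control sample 1, 3 or 4, with adjusted p of 0.0713 to 0.096, and also with median centring (0.0812), on the scanner's processed signals (0.0693) and on the first scan day (0.133), where Shc3 lost its call too (-0.229, adjusted p 0.144).

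Of 24 tested partners of p75, 0 passed in limma in AP5 (1 at an unadjusted p under 0.05). The lowest p-values belonged to Arhgdia (-0.29 in AP5, adjusted p 0.0916, and 0.0161 without AP5 sample 2), and to the GTPase Rhoa (-0.26 in NVP, adjusted p 0.528).

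Of 26 tested transcription factors that act on Bdnf promoters, 3 were lower in AP5 and 0 higher (median 0.01). Npas4, an activity-induced factor, read 1.54 ± 0.12 in control and -0.03 ± 0.14 in AP5, a 2.96-fold fall (-1.57, limma adjusted p 1.08e-08). Junb differed by -0.65 (adjusted p 0.00248) and Fos by -1.0 (adjusted p 0.0442), both subunits of AP-1. Fos lost its call without any 1 of 4 AP5 samples (1, 2, 3 or 4) or 4 control samples (1, 2, 4 or 5), with adjusted p of 0.053 to 0.13. It also lost its call with median centring (0.0812), on the scanner's processed signals (0.0646) and on the first scan day (0.24). The same held without the filter on dim probes (0.0533), with the 2 groups alone (0.0572) and with normexp over all spots as deposited (0.0691). Fos kept its call in 7 of 22 alternatives. Npas4 was -0.44 from control in NVP (adjusted p 0.343) and -0.71 in Ro25 (adjusted p 0.0643).

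Of the 6 lists, the most members moved among genes known to rise when TrkB signals, many of which also answer synaptic activity directly. This list too was chosen with earlier results of these data known, and TrkB signalling itself was not measured. Of 24 tested, 15 were lower in AP5 and 0 higher, with a median of -0.66, and 22 had a fitted difference below 0. Arc, which regulates glutamate receptor trafficking, read 3.01 ± 0.06 in control and 0.37 ± 0.34 in AP5, a 6.24-fold fall (-2.64, limma adjusted p 1.56e-11). Nr4a1, an immediate early nuclear receptor, fell 4.99-fold (-2.32, adjusted p 1.02e-10), the transcription factor Egr3 3.31-fold (-1.73, adjusted p 6.09e-08), and Dusp6, a phosphatase of ERK, 2.2-fold (-1.14, adjusted p 2.68e-08). Bdnf is itself on this list, and Fos and Junb are on it too.

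Other members of the list did not pass in AP5: the neuropeptides Npy, Cort and Tac1 differed by 0.00, -0.06 and -0.04, Homer1 by -0.02 and Scg2 by -0.14. The same list had a median of -0.20 in NVP and -0.22 in Ro25, with 0 of 24 past the limma threshold in either and 10 and 11 at an unadjusted p under 0.05. AP5 against NVP called 12 of the 24, where 7.07% of all genes passed, and AP5 against Ro25 11, where 3.79% did, all lower. With slide as a fixed block 3 of the 24 passed in AP5 against control, in a fit that called 49 of 28496 probes in place of 2193. Of the 15 genes other than Bdnf that the naming rule took from the 6 lists and that passed, 4 passed with that block: Arc, Nr4a1, Egr3 and Npas4. Fos then differed by 0.13, the opposite sign.

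**Figure D5:**
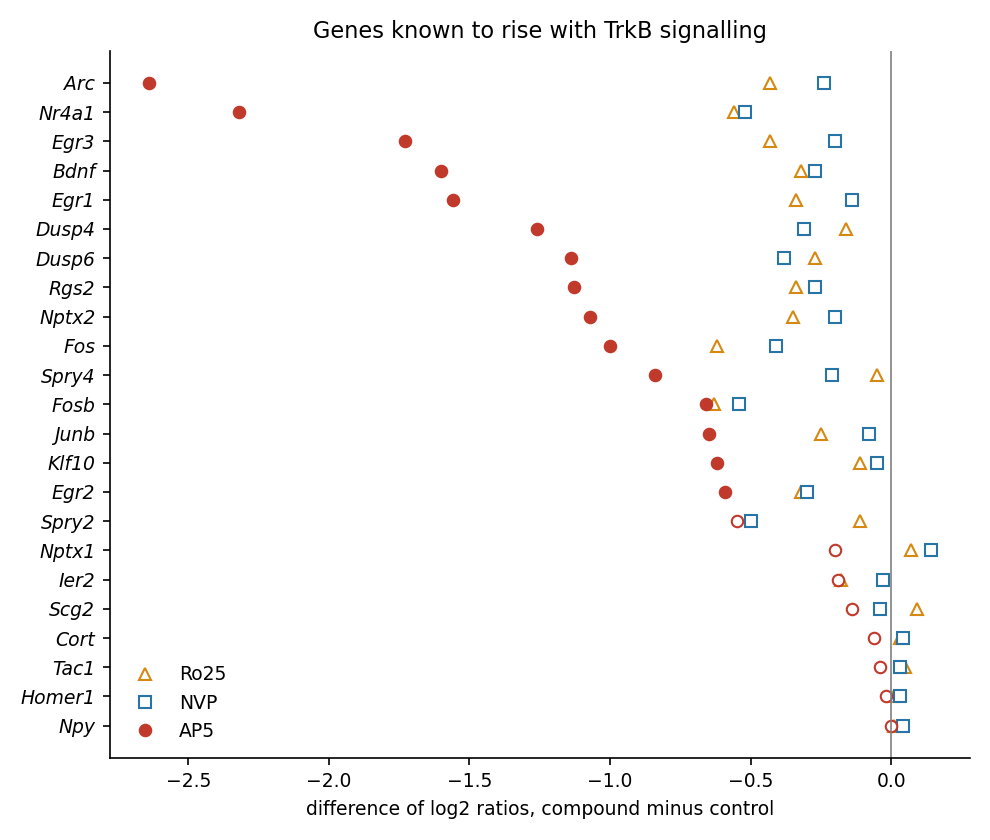
Each mark is the difference of log2 ratios from control of 1 gene known to rise with TrkB signalling, for 23 of the 24 tested, in AP5 (circles), NVP (squares) and Ro25 (triangles); filled marks passed an adjusted p of 0.05 in limma. In AP5, 15 genes are filled and all lie below 0, from -2.64 for Arc, and no mark of NVP or Ro25 is filled.

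Over all 20 arrays the genes most like the upstream Bdnf probe, among 19305 others, were Tnfaip3 (r = 0.972), Galnt15 (0.970), Synj2 (0.967), Thsd4 (0.962), Nr4a1 (0.961) and Nptx2 (0.960). All 6 were lower in AP5, by 0.88 to 2.32 on the log2 scale, so this likeness holds the difference between groups. With group means removed the most like were the probe NAP113099-1 (r = 0.922), Cd300e (0.860), Mcfd2 (0.860), Adcyap1 (0.860), Spast (0.854) and Tmc2 (0.853). Of these, Adcyap1, the neuropeptide PACAP, was lower in AP5 by 1.07 on the log2 scale (limma adjusted p 0.00378) and Mcfd2 by 0.26 (adjusted p 0.0302).

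For the other members, with group means removed, the 3 most like were Cd300c2, Fn3k and the transcript AK053467 for Ntf3 (r = 0.802 to 0.793), and Acadvl, ENSMUST00000066907 and Nt5dc1 for the Ntrk2 clone probe (0.926 to 0.913). For Ntrk3 they were ENSMUST00000035208, 6430704N06 and 9430025N12 (0.890 to 0.855). Pdlim4, Entpd2 and C1qtnf12 were most like Ngfr (0.959 to 0.956), and TC1539994, Wdr1 and Slc22a23 were most like Sort1 (0.955 to 0.916). None of these 15 passed in AP5 against control. All like genes, those of Bdnf included, were picked as the highest r among 19305 genes over 20 arrays. The r that such a pick gives by chance was not computed.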

How the data were processed

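The authors deposited the scanner output of 20 two-colour Agilent arrays, holding an intensity for each spot in each channel. Their headers name version 10.7.3.1 of the Feature Extraction software, and the submitters' processing notes name 11.0. The deposited LogRatio column is log10 of red over green. The deposited series value table holds log2 ratios of 20674 probes, with column medians of 0.0302 to 0.0626, and was used as an alternative. Its direction and scale were those of the loess ratios below, and its centring is not stated.

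Intensities were background-corrected by normexp (offset 50), normalized within arrays by loess and averaged over the spots of a probe, leaving out outlier spots (0.282%). Local backgrounds that the files flag as non-uniform took the array's median. This step was chosen after the data were seen, because a few such spots distorted the normexp fit of AP5 sample 1 and control sample 5; with it the ratios followed the value table with r of 0.9996 to 0.9997 on every array. The same fit without it is given as an alternative.

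One model with 4 group means over all 20 arrays was fitted per probe in limma 3.58.1 (R 4.3.3), two-sided, with Benjamini-Hochberg adjustment over 28496 probes at 0.05. The fitting code was tested on simulated data. Probe names were updated through RefSeq: 22951 probes by accession, 6659 by symbol and 3109 by synonym, while 8455 kept the file's name. A list gene was read from its brightest tested probe. Named list genes were, per list, up to 5 past the threshold against control by lowest adjusted p, or the 2 with the lowest p where none passed; like genes were those with the highest Pearson r (6 for Bdnf over values and 6 over deviations from group means, 3 for each other member). Some genes that the rule or the lists hold are not reported here. List and marker genes named beyond this rule were chosen after their values were seen. Same-numbered samples deviated together (correlation over 0.1) in 1 to 3 of 5 pairs per comparison, so their numbers were not used as pairs. The members and lists were chosen with earlier results of these data known. Array number limits the precision. Alternatives changed the normalization, filter, slide and scan-day handling, fit and samples.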

Additional observations from a re-analysis of the deposited data

Results flagged for a closer look

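In each group of 5 the sample farthest from its neighbour was checked by Dixon's ratio at the 95% level, over 52 groups of 13 probes, where chance alone gives about 1 in 20. In 3 groups it was passed. NVP sample 5 read 1.49 for Ntf3, where the next lowest NVP sample read 1.87. AP5 sample 3 read 4.02 for Ntrk2 variant 1, where the other 4 AP5 samples lay between 4.13 and 4.17. Ro25 sample 3 read -0.05 for the dimmer Ngfr probe, where the next lowest read 0.27. No Bdnf group was among them.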

How the results depend on the processing

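For the upstream Bdnf probe the sign of every comparison held under all alternatives tried. Leaving out 1 array at a time gave AP5 against control -1.67 to -1.48, AP5 against NVP -1.40 to -1.21, AP5 against Ro25 -1.35 to -1.16, NVP against control -0.318 to -0.199, Ro25 against control -0.367 to -0.248 and NVP against Ro25 0.00237 to 0.104. The 3 AP5 comparisons passed and the other 3 did not under each alternative, except that slide as a fixed block gave -1.26 (adjusted p 0.125) against control and -1.04 (adjusted p 0.0666) against Ro25; 1 sample, control 3, links control to the other slides in that fit. The number of member probes called, 2 in each AP5 comparison, was 1 with the deposited value table, which lacks the downstream Bdnf probe, 1 with 1 probe per gene, and 1 with the slide block against control and against Ro25. Bdnf in AP5 against control was -1.60 (adjusted p 7.46e-08) with a replicate block, which changed no member call.

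Over all probes, AP5 against control called 2193 (52% higher), AP5 against NVP 1845 (54.9%) and AP5 against Ro25 965 (45.5%). Median centring called 1073 (37.4%), 872 (26.1%) and 608 (16.9%) in turn, slide as a fixed block 49, 168 and, against Ro25, fewer than 168, the first scan day 1136, 732 and 384, and the value table, with 15204 probes, 1372, 1132 and 594. AP5 against control called 1442 with normexp over all spots as deposited, an alternative chosen after seeing the data, and AP5 against Ro25 467 in a fit of those groups alone and 740 (35.4% higher) on the scanner's processed signals. NVP against control called 0 to 4 and Ro25 against control 0 to 4 under the alternatives that kept every array. For the other 53 results, 1056 of 1118 values kept their direction and side of the threshold or moved by less than the spread between replicates, 83 sign changes were of values past no threshold, and 2 called values changed sign: Fos, 0.131 with slide as a fixed block, and Sorcs3, 0.0782 on the scanner's processed signals. The count of TrkB-responsive genes lower in AP5 ran from 14 to 16 of 24 without 1 array. Dim signal limits the dimmer Ngfr probe, above background in the sample channel on 18 arrays, and Ntf3, above it in the reference channel on 12.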
